A study of Mus musculus with 6 samples.

Results

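The muscle myosin light chains were followed by 8 probes for 7 genes, out of 25697 probes on the array. They were taken by gene symbol, as all probes for Myl1, Myl2, Myl3, Myl4, Myl6b, Myl7 and Mylpf, with 2 probes for Myl1 and 1 for each other gene. This list of genes was chosen with earlier results of these data known. The samples were hindlimb buds of mouse embryos at E12.5, in the strain labelled SV129. Of the 6 samples, 3 carried the genotype PITX1+/+ (wild type) and 3 carried PITX1-/- (called knockout here), all from matings of heterozygous parents, with no other allele or treatment given. The comparison asks which hindlimb transcripts differ when Pitx1, a homeodomain transcription factor of the hindlimb, is mutated. Each sample was hybridised to 1 Illumina bead array. The mutant allele is not described in the labels, nor is it given whether embryos were pooled. The p-values therefore rest on the spread between these samples only, which limma moderates with the spread over all tested probes.

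Myosin of striated muscle is built from a pair of heavy chains, each with an essential and a regulatory light chain wrapped around its lever arm. Essential light chains stiffen the lever and touch actin, and regulatory light chains are phosphorylated by myosin light chain kinases. Developing limb muscle is known to use the embryonic essential chain Myl4 beside the fast chains Myl1 and Mylpf. Myl2, Myl3 and Myl7 are best known as chains of the ventricle, of ventricle and slow muscle, and of the atrium. Myl6b is an essential chain of slow muscle and other tissues.

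The upstream sequences of Myl4, Myl1 and Mylpf are shown because these genes gave the large changes below. Each is the 250 bases before a transcription start in the RefSeq table of build GRCm38.p6, on the gene's own strand, and capitals mark every match to the E-box CANNTG, the site bound by myogenic basic helix-loop-helix factors. The Myl4 window is chr11:104550413-104550662 on the plus strand, that of Myl1 is chr1:66945057-66945306 on the minus strand, and that of Mylpf is chr7:127211358-127211607 on the plus strand.
Myl4: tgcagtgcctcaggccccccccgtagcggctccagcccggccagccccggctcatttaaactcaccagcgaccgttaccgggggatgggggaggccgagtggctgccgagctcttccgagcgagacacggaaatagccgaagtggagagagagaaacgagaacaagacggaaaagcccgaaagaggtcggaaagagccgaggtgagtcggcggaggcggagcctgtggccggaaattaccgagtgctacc
Myl1: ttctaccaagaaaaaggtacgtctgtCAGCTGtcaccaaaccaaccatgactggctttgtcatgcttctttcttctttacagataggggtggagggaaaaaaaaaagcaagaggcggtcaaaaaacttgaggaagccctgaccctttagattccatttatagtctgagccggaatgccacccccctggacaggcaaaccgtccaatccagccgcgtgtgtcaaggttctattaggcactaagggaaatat
Mylpf: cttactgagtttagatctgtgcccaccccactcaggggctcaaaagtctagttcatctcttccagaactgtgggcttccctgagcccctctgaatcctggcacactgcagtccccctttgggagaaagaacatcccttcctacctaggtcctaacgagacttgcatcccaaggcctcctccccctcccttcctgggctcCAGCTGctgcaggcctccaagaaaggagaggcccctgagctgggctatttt
The Myl1 and Mylpf windows each held 1 E-box, and both were the version CAGCTG, which is also a CANNTG match. It began 224 bases before the Myl1 start and 51 bases before the Mylpf start. The Myl4 window held no match. Among the 32851 windows of the same length in the table, 66.2% held CANNTG and 13% held CAGCTG. None of the 3 windows held TAATCC on either strand, the core bound by bicoid-type homeodomain proteins such as Pitx1, which 6.25% of all windows held. None held a MEF2 site (2.92% of all windows) or a CArG box (1.47%), searched on both strands. These are matches of letters in windows around 1 start per gene, and other starts and distant enhancers were not used here.

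Pitx1 itself, on its single probe, gave 154.0, 124.5 and 140.2 units in wild-type replicates 1, 2 and 3 and 78.3, 75.2 and 76.1 in knockout replicates 1, 2 and 3. All knockout values lay below all wild-type values, a change of -0.51 ± 0.09 in log2 units (SE; limma adjusted p = 0.038). It passed without knockout replicate 1 (limma adjusted p = 0.048) and with no other array left out (up to 0.30). With an offset of 16 or 200 or a floor in place of the background model it did not pass (limma adjusted p = 0.074, 0.34 and 0.20). The deleted part of the gene was not given, so a remaining signal says nothing about the allele. Intensities are in arbitrary units and can lie below 0 after background subtraction. A probe was called above background over 14.3 units, which 13527 to 13553 probes per array were. The 13715 probes that exceeded it on 3 or more of the 6 arrays were tested. The limb mesenchyme was well represented, with 11 of the 12 listed markers on the array and all 11 tested. Knockout replicate 3 stood apart, at 22.3 on the first principal component (44.2% of the variance) against -8.9 to 1.4 for the other arrays. The number of arrays limits the precision of every value.

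Of the 8 light chain probes, 3 were far above background on all 6 arrays (Myl4, Mylpf and the probe of Myl1 called probe 1 here, ILMN_2878542), and all 3 had lower values in every knockout sample than in any wild-type sample. Myl4 and Mylpf fell past the threshold over all tested probes, and Myl1 missed it. Another 2 probes, for Myl3 and Myl6b, hovered at the background threshold and were tested, and 3 were not tested (Myl2, Myl7 and the second Myl1 probe). Of the 5 tested probes, 2 passed lower at an adjusted p under 0.05 in limma and 0 passed higher, where 0.153% of all tested probes passed lower and 0.0656% passed higher. At an unadjusted p under 0.05, 3 of the 5 were lower, against 4.15% of all tested probes. The knockout values lay below all wild-type values for 3 of the 5, where 6.58% of all tested probes did so. Fewer muscle cells and less light chain RNA per muscle cell cannot be told apart in such whole-bud samples.

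**Figure D1:**
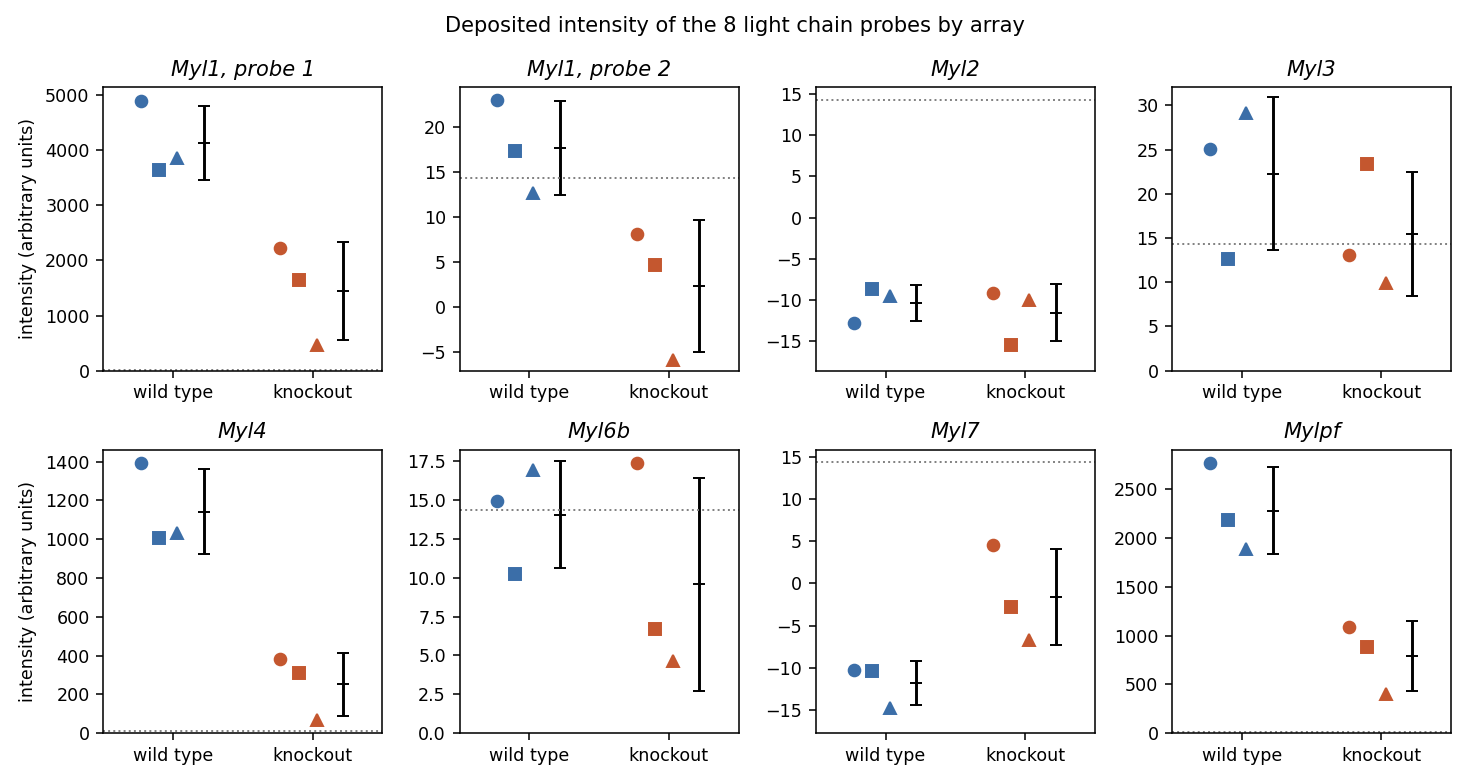
Deposited intensity (arbitrary units) of each of the 8 probes on every array, wild type in blue and knockout in orange, with circles, squares and triangles for replicates 1, 2 and 3. Black bars give mean ± SD (n = 3 each) and the dotted line the background threshold of 14.3 units. The genotypes separate far above the line for Myl4, Mylpf and Myl1 probe 1, and the other probes lie near or below it.

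Myl4, the embryonic and atrial essential light chain (ILMN_2610744), gave 1394, 1004 and 1030 units in wild-type replicates 1, 2 and 3. In knockout replicates 1, 2 and 3 it gave 380.5, 308.2 and 68.1 units. The highest knockout sample was thus well below the lowest wild-type sample, and knockout replicate 3 was far below the other 2. The wild-type mean was 1142 ± 218 units and the knockout mean 252 ± 164 (SD, n = 3 each). The log2 fold change was -2.05 ± 0.31 (SE; adjusted p = 0.018, limma), the lowest of all 13715 tested probes on this scale with its offset. As a ratio of mean intensities, knockout over wild type, Myl4 gave 0.22. The dimmer Acta1 and Sln gave lower ratios, 0.19 and 0.18, each with knockout replicate 3 below background. Set against the wild-type mean, knockout replicates 1, 2 and 3 held 33.3%, 27.0% and 5.96% of the Myl4 intensity.

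Mylpf, the fast skeletal regulatory light chain (ILMN_2977331), gave 2767, 2187 and 1891 units in wild-type replicates 1, 2 and 3. In knockout replicates 1, 2 and 3 it gave 1092, 886.0 and 400.0 units. The genotypes again did not overlap, and knockout replicate 3 was again the lowest. The means were 2282 ± 445 and 793 ± 355 units (SD, n = 3 each). The log2 fold change was -1.53 ± 0.25 (SE; adjusted p = 0.022, limma), which ranked 8 from the lowest over all tested probes. The 3 knockout samples held 47.8%, 38.8% and 17.5% of the wild-type mean.

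Myl1, the fast skeletal essential light chain, gave 4898, 3634 and 3865 units in wild-type replicates 1, 2 and 3 on probe 1. In knockout replicates 1, 2 and 3 the same probe gave 2220, 1639 and 472.8 units. No knockout sample reached a wild-type value, and knockout replicate 3 was once more the lowest. The means were 4132 ± 673 and 1444 ± 890 units (SD, n = 3 each). The log2 fold change of -1.69 ± 0.36 (SE), ranked 4 from the lowest, did not pass (adjusted p = 0.094, limma; unadjusted p = 0.00036). The knockout samples held 53.7%, 39.7% and 11.4% of the wild-type mean.

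The calls for Myl4 and Mylpf depended on having all wild-type arrays, on the background step and offset and on the variance model. Without wild-type replicate 1, 2 or 3 neither passed, with limma adjusted p of 0.14, 0.069 and 0.079 for Myl4 and of 0.18, 0.10 and 0.079 for Mylpf. Both passed whichever knockout array was left out. Without knockout replicate 3 the log2 fold changes were -1.53 for Myl4 (limma adjusted p = 0.00014), -1.14 for Mylpf (0.0026) and -1.07 for Myl1, which then passed (0.0043). Myl1 also passed without knockout replicate 1, at -2.11 (limma adjusted p = 0.014). With an offset of 16 or 200, a floor in place of the background model or robust variances neither Myl4 nor Mylpf passed (limma adjusted p of 0.074 to 0.46). The directions could not turn on leaving out 1 array, since the genotypes did not overlap.

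**Figure D2:**
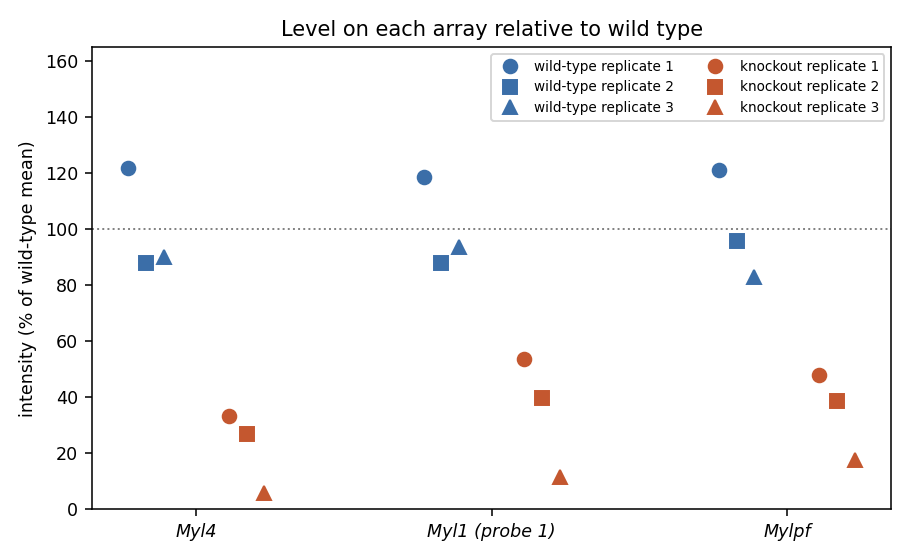
Intensity on each array as a percentage of the wild-type mean for Myl4, Myl1 probe 1 and Mylpf, wild type in blue and knockout in orange, with a symbol for each replicate number. In all 3 genes knockout replicate 1 is the highest and knockout replicate 3 the lowest knockout sample, down to 5.96% for Myl4, and every knockout sample lies under every wild-type sample.

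The size of the change was then compared between these genes. The within-array difference between Myl4 and Mylpf on the log2 scale, relative to its wild-type mean, was -0.41, -0.38 and -0.80 in knockout replicates 1, 2 and 3 and between -0.12 and 0.12 in the wild-type samples. The change in Myl4 was thus lower than that in Mylpf by 0.53, with no overlap between genotypes. An exact two-sided permutation test gave p = 0.10, the smallest that 3 against 3 samples can give, and 0.13 after adjustment over the 4 pairs compared. This difference was -0.22 with an offset of 200 and -0.87 with intensities set to a floor instead of corrected. For Myl1 against Mylpf the difference was -0.17 (exact permutation p = 0.80), the genotypes overlapped, and without knockout replicate 3 it turned to 0.065.

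**Figure D3:**
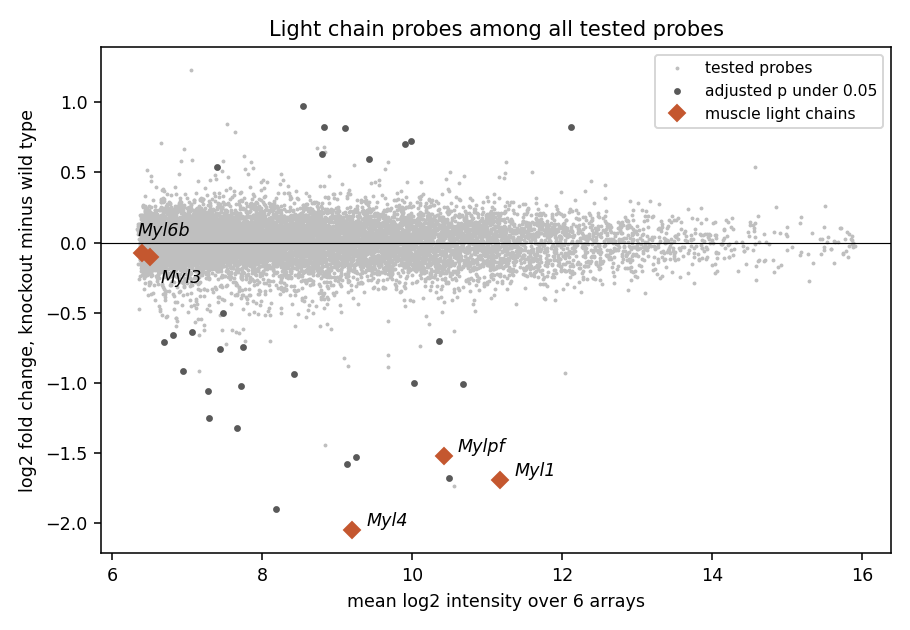
Log2 fold change (knockout minus wild type) against mean log2 intensity over the 6 arrays for all 13715 tested probes in grey, with probes at an adjusted p under 0.05 in dark grey and the 5 tested light chain probes as orange diamonds. Myl4, Myl1 and Mylpf lie at the bottom edge of all probes at -2.05, -1.69 and -1.53, and Myl3 and Myl6b lie near 0 at the dim end.

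The second Myl1 probe (ILMN_2694907) gave 22.9, 17.3 and 12.6 units in wild-type replicates 1, 2 and 3 and 8.1, 4.7 and -5.9 in knockout replicates 1, 2 and 3. It was above background on 2 wild-type arrays and on no knockout array, and was not tested. All knockout values lay below all wild-type values, as on probe 1. The wild-type mean was 1.04-fold above the level that background allows on the knockout arrays. That mean includes wild-type replicate 3, itself below background, so the value is no firm lower bound. Such a value, a bound only where all wild-type arrays are above background, is taken on the log2 scale with the offset. It sets the wild-type mean against, on each knockout array, the lowest signal above background or the probe's own value if higher. Probe sequences were not used here, so the transcripts that the 2 probes detect were not told apart.

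Myl3, the ventricular and slow essential light chain, gave 25.1, 12.6 and 29.2 units in wild-type replicates 1, 2 and 3 and 13.1, 23.4 and 9.9 in knockout replicates 1, 2 and 3. It was above background on 2 wild-type arrays and on 1 knockout array, and the genotypes overlapped. Its log2 fold change was -0.11 ± 0.10 (SE; adjusted p = 0.81, limma). Myl6b gave 14.9, 10.2 and 16.9 units in wild-type replicates 1, 2 and 3 and 17.4, 6.7 and 4.6 in knockout replicates 1, 2 and 3, also above background on 2 and 1 arrays. The genotypes overlapped, and the log2 fold change was -0.08 ± 0.09 (SE; adjusted p = 0.85, limma). Signals this close to background leave little room for a fold change to show, so a change of the size seen in Mylpf was not measurable for these probes.

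Myl2, the ventricular and slow regulatory light chain, lay between -15.5 and -8.7 units and so was below background on all 6 arrays. Myl7, the atrial regulatory light chain, gave -10.2, -10.4 and -14.8 units in wild-type replicates 1, 2 and 3 and 4.5, -2.7 and -6.7 in knockout replicates 1, 2 and 3. Myl7 too was below background on all 6 arrays, so its higher knockout values carry no fold. The heart was represented by 15 markers, of which 13 had a probe, and 12 of these 13 were below background on all 6 arrays (Nppa, Nppb, Nkx2-5, Gata4, Gata5, Tbx20, Hand1, Myh6, Myh7, Tnni3, Mybpc3 and Ryr2). The exception, Irx4, was above background on 1 array. The summed intensity of all 13, Irx4 included, ran from 37.1 to 45.4 units in wild type and from 35.6 to 51.4 in knockout, with values below 0 set to 0.

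No light chain outside the sarcomere passed the test. These chains serve nonmuscle and smooth muscle myosin. Of 5 listed, 3 were tested and 0 passed in either direction in limma, where 0.153% of all tested probes passed lower and 0.0656% higher. At an unadjusted p under 0.05 there was 1, where 3.89% of all tested probes were higher at that level. Myl6, the essential chain of nonmuscle myosin, gave 7818, 7947 and 6541 units in wild-type replicates 1, 2 and 3 and 9422, 8113 and 9641 in knockout replicates 1, 2 and 3, so that every knockout value was above every wild-type value. Its log2 fold change was 0.28 ± 0.11 (SE; adjusted p = 0.51, limma). Myl12a and Myl12b, regulatory chains of nonmuscle myosin, gave -0.06 ± 0.09 and -0.0031 ± 0.1036 (adjusted p = 0.897 and 0.996). Enzymes that add or remove the regulatory phosphate gave no call either. Of 11 listed, 6 were tested, and 0 reached an adjusted or an unadjusted p under 0.05 in limma. Over all tested probes 4.15% were lower and 3.89% higher at the unadjusted level. At such shares 0 of 6 is no result about these enzymes. Mylk, the smooth muscle and nonmuscle light chain kinase, gave 0.24 ± 0.11 (adjusted p = 0.62), Rock1, a kinase that inhibits the light chain phosphatase, gave 0.14 ± 0.11 and Ppp1cb, the phosphatase's catalytic subunit, gave 0.11 ± 0.11. Mylk2, the skeletal muscle kinase, was below background on all 6 arrays.

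The heavy chain partner that was measured fell with the light chains. Of 9 sarcomeric heavy chains listed, 5 had a probe and 1 was tested. That gene, the perinatal chain Myh8, gave 176.4, 111.3 and 172.8 units in wild-type replicates 1, 2 and 3 and 41.8, 44.3 and 20.2 in knockout replicates 1, 2 and 3, with no overlap (log2 fold change -1.06 ± 0.13 SE, adjusted p = 0.0064, limma). The offset compresses the change of dim probes such as this. As a ratio of mean intensities, knockout over wild type, Myh8 gave 0.23, where Mylpf gave 0.35. Myh8 missed the threshold without wild-type replicate 1 (limma adjusted p = 0.054) and without wild-type replicate 3 (0.079). Myh1, Myh4, Myh6 and Myh7 were below background on all 6 arrays, and the embryonic chain Myh3 had no named probe. Among genes of thick filament assembly and the M-band, 0 of 6 tested passed in limma. Over all tested probes 0.153% passed lower and 0.0656% higher. At an unadjusted p under 0.05 there were 2, both lower, against 4.15% of all tested probes, with a list median of -0.08 against 0.01 for all tested probes. These were Ttn, the giant spring titin, at -0.54 ± 0.12 (adjusted p = 0.12, limma) with a ratio of mean intensities of 0.35, and Mybpc1, slow myosin binding protein C. Mybpc1 was above background on no knockout array and at least 1.17-fold higher in wild type (adjusted p = 0.38, limma). It entered the test only through its wild-type arrays. Its lower value is thus tied to the filter and cannot be read against the 4.15%. Smyd1, a methyltransferase of myosin assembly, gave 0.17 ± 0.11 (adjusted p = 0.72).

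In the thin filament, which myosin pulls on, several genes fell. Of 18 listed genes, 13 were tested, 4 fell, 0 rose and 9 did not pass, where 0.153% of all tested probes fell and 0.0656% rose. The list had a median log2 fold change of -0.64 against 0.01 over all tested probes. Acta1, skeletal alpha-actin, fell by 1.91 on the log2 scale (SE 0.28, adjusted p = 0.017, limma), and Tnnc2, fast troponin C, and Tnnt1, slow troponin T, also fell, with log2 fold changes of -1.53 and -1.01 (adjusted p = 0.026 and 0.023). The fourth was Tnnc1, slow troponin C, at -1.68 ± 0.29 (adjusted p = 0.031). At an unadjusted p under 0.05 in limma, 9 of the 13 were lower, where 4.15% of all tested probes were. Tmod1 alone was higher at that level, at 0.27 ± 0.10, where 3.89% of all tested probes were higher. Without wild-type replicate 1, 2 or 3, 0 of the 13 passed in limma. Each time 10 had an unadjusted p under 0.05 in either direction, against 718, 913 and 710 of all 13715 tested probes. Without knockout replicates 1, 2 and 3 the numbers passing were 8, 5 and 6, against 91, 48 and 32 over all tested probes. The genes that activate muscle transcription gave smaller values. Of 7 myogenic regulators tested, 0 passed in limma, where 0.153% of all tested probes passed lower and 0.0656% higher. At an unadjusted p under 0.05 there were 2, both lower, where 4.15% of all tested probes were lower at that level, with a list median of -0.07. Myog, the differentiation factor of the MyoD family, gave 194.2, 140.9 and 172.2 units in wild-type replicates 1, 2 and 3 and 114.2, 95.0 and 48.6 in knockout replicates 1, 2 and 3 (log2 fold change -0.63 ± 0.14 SE, adjusted p = 0.12, limma). Mef2c, a MADS-box partner of these factors, gave -0.52 ± 0.15 (adjusted p = 0.32) and Mef2d gave 0.10 ± 0.12 (adjusted p = 0.85). Pax3, Pax7, Myf5, Myf6 and Met, which mark muscle progenitors and other stages of the lineage, were below background on all 6 arrays. Without knockout replicate 1, Myog alone among these regulators passed. Whether light chains changed more than these regulators was not tested, and the offset compresses the change of dim probes.

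**Figure D4:**
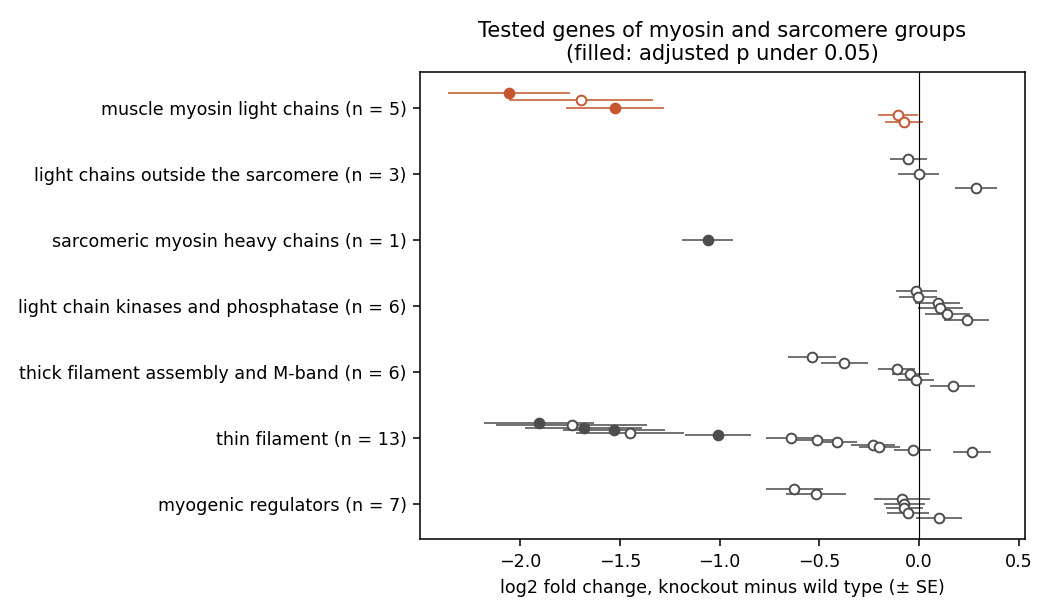
Log2 fold change, knockout minus wild type, with SE bars for each tested light chain probe (orange) and each tested gene of 6 related groups (grey), where filled points have an adjusted p under 0.05. Myl4, Mylpf, the heavy chain Myh8 and 4 thin filament genes are filled and lie at or below -1.01, while nonmuscle light chains and light chain kinases lie around 0.

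The genes with the profiles most like those of Mylpf and Myl4 were then listed. Likeness was the root mean square difference between log2 profiles over the 6 arrays, each relative to its wild-type mean, among 9527 genes outside the light chains. The nearest genes to Mylpf were Tnnc2 (0.09), the tropomyosin gene Tpm2 (0.13), the slow troponin C gene Tnnc1 (0.15), the calcium pump regulator Sln (0.24) and the Z-disc gene Actn2 (0.29). For comparison, Myl1 differed from Mylpf by 0.28 and Myl4 by 0.40. The nearest genes to Myl4 were Acta1 (0.16), Tnnc1 (0.27), the cardiac and embryonic skeletal actin gene Actc1 (0.31), Tnnc2 (0.39) and Tpm2 (0.44). These profiles share the genotype difference and the low values of knockout replicate 3, and the measure is a description of 6 arrays.

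Markers of other cell types were summed on each array, with values below 0 set to 0. Of 14 skeletal muscle lineage markers, 13 had a probe and 6 were tested. Of these 1 passed lower and 0 higher, where 0.153% and 0.0656% of all tested probes did. That marker was Chrng, the fetal acetylcholine receptor subunit, at -1.02 ± 0.16 (SE; adjusted p = 0.022, limma). Des, the muscle intermediate filament desmin, gave -0.55 ± 0.11 (adjusted p = 0.076, limma). At an unadjusted p under 0.05, 5 of the 6 were lower, where 4.15% of all tested probes were. Myod1, the tested marker that did not reach that level, gave 41.8, 39.8 and 46.4 units in wild-type replicates 1, 2 and 3. In knockout replicates 1, 2 and 3 it gave 63.8, 39.6 and 10.8 units, so the genotypes overlapped. Its log2 fold change was -0.09 ± 0.14 (SE; adjusted p = 0.89, limma). The summed intensity of the skeletal list ran from 606.0 to 748.1 units in wild type and from 150.5 to 451.1 in knockout. The smooth muscle list held 9 genes with a probe, of which 5 were below background on all 6 arrays (Tagln, Myh11, Cnn1, Synpo2 and Actg2). Acta2, the smooth muscle actin that embryonic skeletal muscle also expresses, gave -0.93 ± 0.29 (adjusted p = 0.36, limma). The summed list ran from 6053 to 6455 units in wild type and from 2107 to 5785 in knockout. Most of that sum was Acta2. It gave 5830, 5563 and 5779 units in wild-type replicates 1, 2 and 3, and 5208, 3278 and 1524 in knockout replicates 1, 2 and 3. Smtn and Mylk, also tested, gave -0.14 ± 0.11 and 0.24 ± 0.11 (adjusted p = 0.76 and 0.62, limma), with overlapping genotypes. Of 8 erythroid markers tested, 1 rose (Nfe2, an erythroid transcription factor) and 7 did not pass, with 0 below background on all 6 arrays. Over all tested probes 0.0656% rose. At an unadjusted p under 0.05, 6 of the 8 were higher and 0 lower, where 3.89% and 4.15% of all tested probes were. The summed erythroid markers ran from 7175 to 8717 units in wild type and from 9626 to 11084 in knockout. Cartilage markers summed to between 4255 and 6056 units in wild type and between 2746 and 4555 in knockout. Of 8 tested, 1 passed lower (Matn4, a cartilage matrix protein), where 0.153% of all tested probes did. In this list 2 of the 8 were lower at an unadjusted p under 0.05, against 4.15% of all tested probes. Sox6, Hapln1 and Cnmd were below background on all 6 arrays. Limb mesenchyme markers summed to between 11294 and 12019 units in wild type and between 9868 and 12257 in knockout. Of these 0 of 11 passed in limma, where 0.153% of all tested probes passed lower and 0.0656% higher. At an unadjusted p under 0.05, 1 was lower (Tbx4) and 1 higher (Prrx1), where 4.15% and 3.89% of all tested probes were. Of these marker calls, Chrng and Matn4 were lost when any 1 wild-type array was left out, and Nfe2 when any array but knockout replicate 1 was. Without knockout replicate 1, 3 skeletal lineage markers (Chrng, Des and Myog), 3 erythroid markers (Ermap, Klf1 and Nfe2), Acta2 and Matn4 passed. In that fit 91 of all 13715 tested probes passed. The part of these shifts in the light chain values was not tested.

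**Figure D5:**
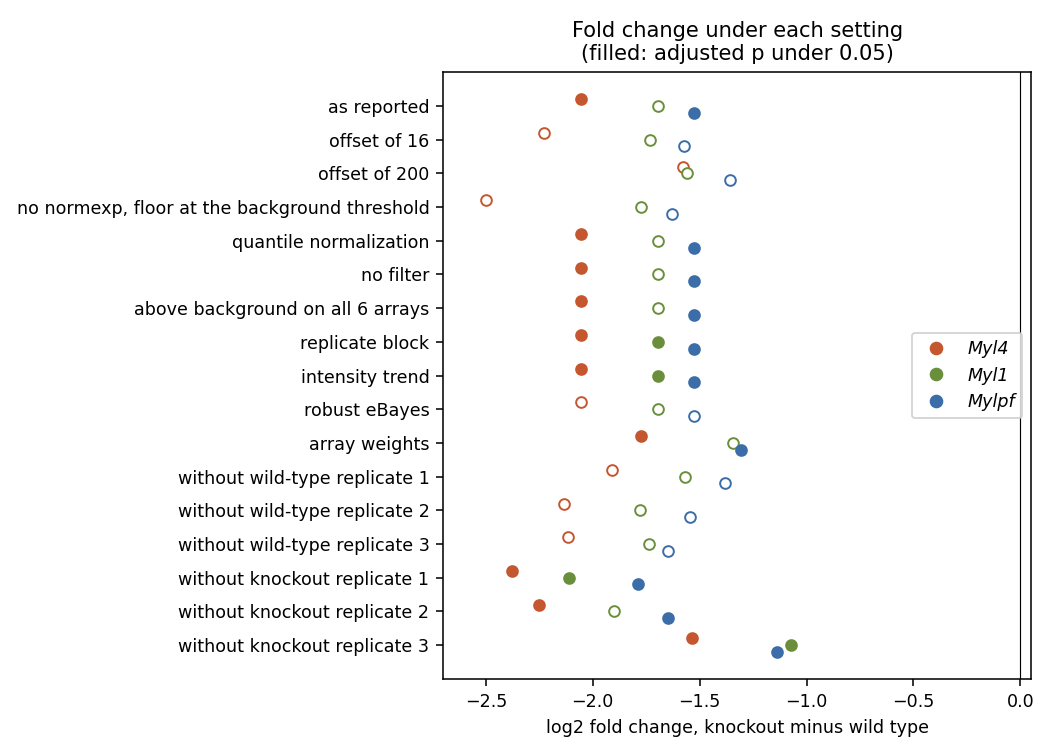
Log2 fold change of Myl4, Myl1 probe 1 and Mylpf, knockout minus wild type, as reported and under each other setting or with 1 array left out, with filled points where the adjusted p was under 0.05. All points lie between -2.50 and -1.07, while the points for Myl4 and Mylpf are open for every wild-type array left out, for both other offsets, for the floor and for robust variances.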

How the data were processed

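The deposited value table held linear bead intensities, 27.9% of them below 0. RNA extraction used Trizol and DNase I and labelling an Ambion MessageAmp kit, per the labels' protocols. How the authors subtracted background and normalized these deposited intensities is not given in the sources used here, although the sorted values of the 6 columns differed by a median of 0.046 units. A second table, with 12 columns that match no single sample's labels, was not used, so background came from the values below 0 (root mean square 8.71, times 1.64). Intensities were corrected with normexp (offset 50, limma 3.58.1, R 4.3.3), converted to log2 and compared by lmFit and eBayes (two-sided, Benjamini-Hochberg adjustment over 13715 probes, threshold 0.05). Probes were named from GEO's annotation of the platform, with 23962 symbols updated by Entrez identifier. A gene outside the light chains was taken by its brightest probe. The fit was tested on simulated data.

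Members, lists and tests were chosen with earlier results of these data known. Named were all members, Pitx1, up to 3 genes per related list and 2 per marker list by smallest p, and the 5 nearest profiles of Mylpf and Myl4. Replicate numbers are shared by the genotypes with no stated meaning. No 2 arrays were identical (Pearson correlations 0.989 to 0.996). Alternatives covered offset, background, normalization, filter, block, variance model, weights and each array left out. Figures used matplotlib 3.10.9.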

Additional observations from a re-analysis of the deposited data

How the results depend on the processing

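As reported, 2 light chain probes and 30 of all tested probes passed. With an offset of 16, of 200, with a floor at the background threshold in place of normexp, and with robust eBayes, 0 light chain probes passed, each time with 3 at an unadjusted p under 0.05 in limma. Over all probes these 4 settings gave 8, 0, 0 and 18 calls, with 1033, 1136, 951 and 1105 at an unadjusted p under 0.05. The intensity trend gave 49 calls over all probes and 3 among the light chains. Leaving out 1 array gave 0 to 3 light chain calls and 0 to 91 over all probes, the 0 arising without wild-type replicate 3 (710 at an unadjusted p under 0.05). The replicate block gave 84 calls over all probes and 3 among the light chains (Myl1 included, adjusted p = 0.0024). The correlations of same-numbered deviations were 0.23, 0.17 and -0.07, so the numbers were not taken as pairs. Over the settings other than leaving out an array, the limma adjusted p ranged from 0.00011 to 0.46 for Myl4, from 9.6e-05 to 0.44 for Mylpf and from 0.0024 to 0.62 for Myl1. No light chain probe or Pitx1 turned direction under any setting run. The change in Myl1 minus that in Mylpf ran from -0.32 to 0.065 with 1 array left out, and was reversed (0.065) without knockout replicate 3. The Myl4 difference from Mylpf moved to -0.22 (offset of 200) and -0.87 (floor), comparisons added after seeing the data. The cause of these changes was not tested. Probes near background limit what can be seen for Myl3, Myl6b, Myl2 and Myl7.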
